A study of Homo sapiens with 4 samples.

Results

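GAS6 and GAS6-DT are neighbouring genes on human chromosome 13 that start close together and are read in opposite directions. Both were chosen by symbol, with their higher level after verticillin A already known, so their change between the groups is given as a description and was not tested. The platform annotation gives 1 probe set to each, so the 2 genes stand on 2 of 16098 named probe sets and are 2 of 14884 named genes on the arrays. The 4 whole-transcript arrays of the study read RNA from LS411N-5FU-R, a 5-fluorouracil (5-FU) resistant line derived from the metastatic human colon carcinoma line LS411N. For the 2 treated arrays LS411N-5FU-R cells grew for 3 days in 50 nM of verticillin A, which is a fungal epipolythiodioxopiperazine, and for the 2 control arrays LS411N-5FU-R cells grew for 3 days without it (0 nM). The resistant line is a single line shared by both groups, and no parental LS411N array was analysed here, so every value concerns cells already resistant to 5-FU. The comparison asks which transcripts differ after verticillin A in a study concerned with trimethylation of histone H3 lysine 9. The labels do not state whether samples of the same group are separate cultures, and each p-value therefore reflects only a spread between samples that could be technical.

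GAS6 encodes a secreted ligand of TYRO3, AXL and MERTK, the TAM receptor tyrosine kinases, and was first found as a gene induced by growth arrest. Its amino-terminal Gla domain is carboxylated on glutamates in a vitamin K dependent reaction and then binds phosphatidylserine on dying cells, which lets GAS6 bridge such cells to a receptor and promote their engulfment. PROS1, which encodes protein S, is its closest relative and the other main TAM ligand. GAS6-DT, also called GAS6-AS2, is a long non-coding RNA that starts beside GAS6 on the opposite strand. In tumours AXL signalling has been linked to invasion, mesenchymal traits and drug resistance.

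The stretch between the start sites is shown because both transcripts leave from it. Promoter windows from RefSeq (GRCh38.p14), which run from 250 bases before to 50 bases after a start, were found for 2 of 2 genes and share 200 of their 300 bases. The annotated starts are 100 bases apart. The first line is that stretch on the strand of GAS6-DT (plus strand, chr13:113864077-113864176) and the second is the 250 bases before the start of GAS6 on its own strand (minus strand, chr13:113864077-113864326). The last 100 bases of the second line are the reverse complement of the first line. Capitals mark GC boxes, the letters GGGCGG on either strand.
Between the starts, GAS6-DT strand: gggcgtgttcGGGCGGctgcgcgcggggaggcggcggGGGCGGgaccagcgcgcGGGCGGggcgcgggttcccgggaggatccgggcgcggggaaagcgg
Upstream of GAS6, GAS6 strand: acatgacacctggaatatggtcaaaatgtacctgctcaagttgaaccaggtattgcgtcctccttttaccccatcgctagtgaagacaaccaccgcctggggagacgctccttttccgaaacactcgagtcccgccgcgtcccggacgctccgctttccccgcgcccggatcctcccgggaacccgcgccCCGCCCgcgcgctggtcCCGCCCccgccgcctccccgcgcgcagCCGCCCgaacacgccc

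The shared stretch is rich in CpG, with 20 CpG in 100 bases and a GC content of 85%. The full GAS6-DT window held 56 CpG and the GAS6 window 42, against a median of 14 over 35116 promoter windows of the same length, and 99.7% and 94.2% of windows held fewer. The GC box occurred 3 times between the starts, 4 times in the GAS6-DT window and 3 times in the GAS6 window. Of all windows 45% held at least 1, 15.8% at least 3 and 9.06% at least 4. The TATA box (TATAAA, in 11.5% of windows), the CCAAT box (CCAAT, 34.6%) and the AP-1 site (TGANTCA, 7.71%) had 0 matches on either strand of both windows. There were also 0 matches to the letters of the hypoxia element (ACGTG, 21.4%), the TEAD site (GGAATG, 14%), the ATF4 and CHOP element (TGATGNAA, 3.62%) and the heat shock element (GAANNTTC, 6.77%). The NRF2 element (TGACNNNGC) occurred once in the GAS6-DT window, before its start and inside the transcribed part of GAS6, and in 13.3% of all windows. An E-box (CANNTG) occurred once in the GAS6 window and in 68.7% of all windows. The motifs were searched on both strands with overlaps allowed, and a match or its absence describes these letters only.

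GAS6-DT was the more changed of the pair. Its log2 values were 7.18 and 7.41 on the verticillin A arrays and 5.06 and 5.09 on the control arrays. Both treated arrays lay above both control arrays, as in 25.7% of all genes. The smallest treated minus control difference was 2.09, and the arrays differed by 0.23 within the treated and by 0.02 within the control group. Since the gene was chosen with its rise known, these values are a description. The means were 7.30 ± 0.17 with verticillin A and 5.07 ± 0.02 in control cells (SD, n = 2 per group), a log2 change of 2.22 or 4.66-fold. Among 14884 genes 1 had a larger log2 change upward, and among 1398 long non-coding RNA genes 0 had.

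GAS6 itself was also higher with verticillin A. Its log2 values were 7.37 and 7.42 on the verticillin A arrays and 6.10 and 6.27 on the control arrays, again without overlap. The smallest treated minus control difference was 1.09 and the largest 1.32, while the arrays differed by 0.06 within the treated and by 0.17 within the control group. The means were 7.39 ± 0.04 with verticillin A and 6.19 ± 0.12 in control cells (SD, n = 2 per group), a log2 change of 1.21 or 2.31-fold. Among 14884 genes 13 had a larger log2 change upward, and 24 genes, of which 3 were long non-coding, reached a log2 change of 1. Over all genes 25.7% had both treated arrays above both control arrays, so this arrangement is common and nothing is read from it for the pair.

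The log2 change of GAS6-DT exceeded that of GAS6 by 1.01, and the smallest difference between a treated and a control array for GAS6-DT was larger than the largest for GAS6. This compares differences, not levels, since the brightness of different probe sets cannot be set against each other. Each gene has a single probe set, so no second probe set could be compared. No detection calls were used. The control values of GAS6-DT lay close to the median of all probe sets, 4.61, where a fold change may not give the size of the change in RNA. More cells that express a gene and more RNA per cell cannot be told apart in these bulk samples.

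**Figure D1:**
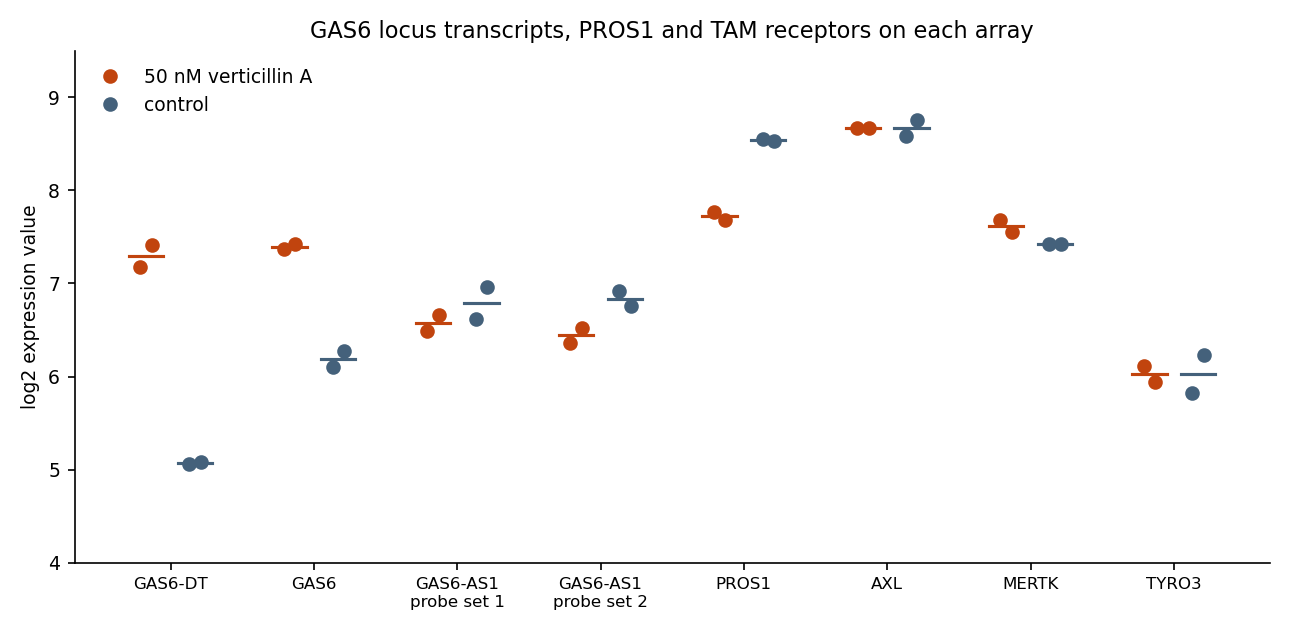
Log2 expression value of each array for GAS6-DT, GAS6, both probe sets of GAS6-AS1, PROS1 and the TAM receptors AXL, MERTK and TYRO3, with 50 nM verticillin A (orange, left) and control (blue, right) and a bar at the mean of 2 arrays. GAS6-DT (7.18 and 7.41 against 5.06 and 5.09) and GAS6 (7.37 and 7.42 against 6.10 and 6.27) lie higher with verticillin A, PROS1 lies lower, and the AXL and TYRO3 groups overlap. Levels of different probe sets cannot be compared with each other.

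The genes beside the pair did not share changes of this size. In the fit of all genes with limma, an adjusted p below 0.05 after Benjamini-Hochberg adjustment over 14884 genes counted as a change, which 528 genes passed upward (3.55%) and 759 downward (5.10%). An unadjusted p below 0.05 was reached by 3970 genes, or 26.7%. Limma called 0 genes without control replicate 1 and 0 without control replicate 2 (3715 and 3528 genes at an unadjusted p below 0.05), and 139 and 153 without verticillin A replicates 1 and 2, so every call named here depends on both control arrays. Of the 5 measured genes on each side of GAS6 and GAS6-DT in RefSeq order, 1 passed upward and 1 downward, both on the GAS6 side. TFDP1, the DNA-binding partner of E2F factors, rose by 0.41 ± 0.07 (log2 change ± SE, limma adjusted p = 0.0267). SLC9D1, formerly TMCO3, fell by 0.42 ± 0.08 (limma adjusted p = 0.0358). Both calls were lost whichever array was left out. For TFDP1 the limma adjusted p was then 0.0864 and 0.0998 without control replicates 1 and 2, and 0.126 and 0.136 without verticillin A replicates 1 and 2. For SLC9D1 it was 0.0766 and 0.115 without control replicates 1 and 2, and 0.139 and 0.159 without verticillin A replicates 1 and 2.

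GAS6-AS1 overlaps GAS6 on the opposite strand at the other end of the gene, and did not pass. Its brighter probe set had log2 values of 6.49 and 6.66 with verticillin A and 6.61 and 6.96 in control cells, which overlap (log2 change -0.21 ± 0.14, SE, limma adjusted p = 0.402). The other probe set had 6.36 and 6.53 with verticillin A and 6.92 and 6.76 in control cells, without overlap and lower in the treated cells by 0.39 on average. Both probe sets therefore had the sign opposite to GAS6 and GAS6-DT. Whether the probes separate the strands is not given in the sources used here.

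SWINGN, a long non-coding RNA whose full name is SWI/SNF interacting GAS6 enhancer non-coding RNA, is the next measured gene beyond GAS6-DT. Its means were 4.59 ± 0.02 with verticillin A and 4.42 ± 0.02 in control cells (SD, n = 2 per group), a log2 change of 0.17 ± 0.07 (SE) with a limma adjusted p of 0.181. Both groups lay near the median of all probe sets, and the groups did not overlap. RASA3, a GTPase activating protein for RAS and RAP, had a log2 change of 0.13 (limma adjusted p = 0.482). The remaining 6 neighbours, GRK1, LINC00552, CDC16, MIR4502, CHAMP1 and the antisense gene above, had log2 changes from -0.21 to 0.11 and 0 of them passed in limma, with 0 at an unadjusted p below 0.05.

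**Figure D2:**
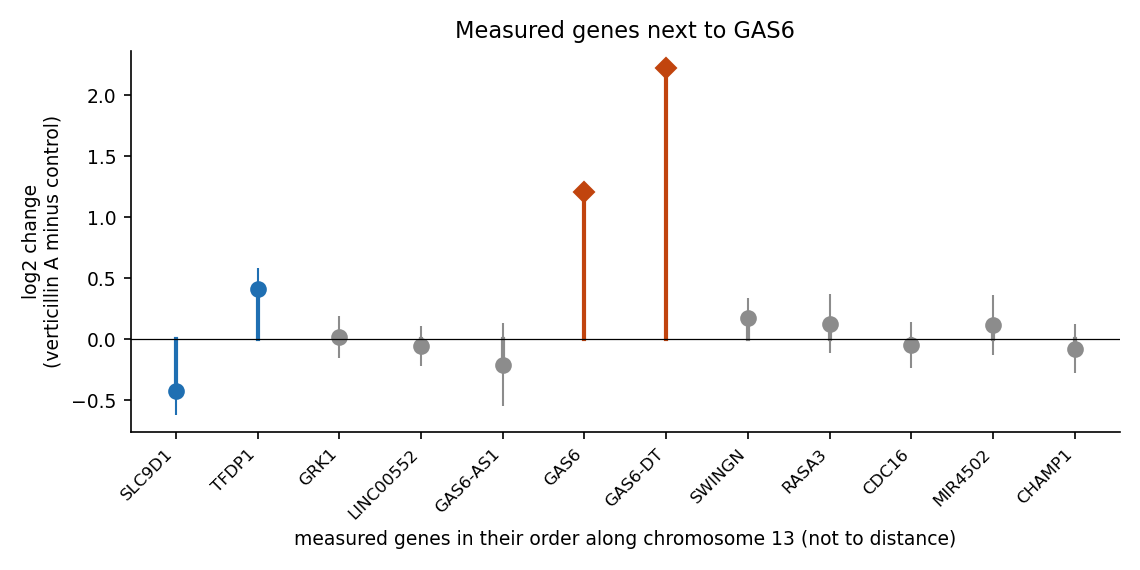
Log2 change (verticillin A minus control) of the measured genes around GAS6 in their order along chromosome 13, evenly spaced and not to distance; diamonds mark GAS6 (1.21) and GAS6-DT (2.22), which carry no interval because they were not tested, blue points passed in limma and grey points did not, with 95% intervals. The other 10 genes lie between -0.42 and 0.41.

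Among the ligands of the TAM receptors, PROS1 went the opposite way to GAS6. PROS1 had log2 values of 7.76 and 7.69 on the verticillin A arrays and 8.55 and 8.53 on the control arrays. Both treated arrays were lower than both controls, an arrangement found in 29.1% of all genes. The means were 7.72 ± 0.05 with verticillin A and 8.54 ± 0.01 in control cells (SD, n = 2 per group), so PROS1 was 1.76-fold lower (log2 change -0.82, 95% interval -0.99 to -0.64, limma adjusted p = 0.00909). The call was lost without control replicate 1 (limma adjusted p = 0.0656) and without control replicate 2 (0.0759), at log2 changes of -0.81 and -0.82, and when all 53617 probe sets were tested (0.0591). TUB and TULP1, tubby family proteins described as further ligands that bridge dying cells to MERTK, had log2 changes of -0.16 and -0.05 and did not pass (limma adjusted p = 0.211 and 0.823). Their values lay below the median of all probe sets in both groups.

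None of the 3 TAM receptor genes passed in limma, with 0 at an unadjusted p below 0.05. Over all genes these shares were 8.65% and 26.7%, so for 3 genes nothing is read from the count. AXL, the receptor with the highest affinity for GAS6, had log2 values of 8.67 and 8.67 with verticillin A and 8.59 and 8.76 in control cells. The treated arrays lay between the controls, and the 95% interval of the log2 change ran from -0.21 to 0.21. MERTK, the receptor best known from phagocytes, had 7.68 and 7.55 with verticillin A and 7.43 and 7.42 in control cells. It was higher on both treated arrays, by 0.19 on average, but missed the threshold (95% interval -0.003 to 0.38, limma adjusted p = 0.193). TYRO3 had 6.11 and 5.95 with verticillin A and 5.82 and 6.23 in control cells, with equal means and an interval from -0.37 to 0.37. None of the 3 intervals reaches a change as large as the 1.21 of GAS6 or the -0.82 of PROS1.

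Genes that prepare Gla proteins did not pass. GGCX, the gamma-glutamyl carboxylase that modifies the Gla domain, had a log2 change of -0.14 (95% interval -0.35 to 0.08, limma adjusted p = 0.39). FURIN, the protease that removes propeptides, and CALU, calumenin, an inhibitor of the carboxylation system, had -0.02 and -0.02 (limma adjusted p = 0.92 and 0.918). These 3 were the measured members of a list of 8, and the other 5 were not analysed here. Of 12 other Gla protein genes 10 were measured and 0 passed in limma, with 0 at an unadjusted p below 0.05. The shares over all genes were 8.65% and 26.7%. The means of 7 of the 10 lay below the median of all probe sets in both groups. Their log2 changes ran from -0.18 for F7, coagulation factor VII, to 0.18 for PRRG2, a transmembrane Gla protein, with a median of 0.02 beside -0.01 over all genes tested.

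Downstream of the receptors, 13 of 23 listed genes for signalling and shedding were measured, of which 0 rose and 2 fell, with a median log2 change of -0.08. Over all genes 5.10% fell, and 6 of the 13 had an unadjusted p below 0.05, beside 26.7% of all genes. VAV1, a guanine nucleotide exchange factor for RAC, had log2 values of 7.01 and 7.05 with verticillin A and 7.37 and 7.38 in control cells. It fell by 0.34 ± 0.07 (log2 change ± SE, limma adjusted p = 0.0398). ADAM17, a metalloprotease that sheds MERTK from the surface, had 9.57 and 9.53 with verticillin A and 9.86 and 9.86 in control cells. It fell by 0.31 ± 0.07 (limma adjusted p = 0.0497), only just below the threshold. ADAM10, which sheds AXL, had a log2 change of -0.30 ± 0.07 (SE) and missed it (limma adjusted p = 0.0559). Both calls were lost whichever array was left out, with limma adjusted p for VAV1 of 0.105 and 0.124 without control replicates 1 and 2 and 0.189 and 0.165 without verticillin A replicates 1 and 2. For ADAM17 the values were 0.122 and 0.134 without control replicates 1 and 2 and 0.18 and 0.23 without verticillin A replicates 1 and 2. After centring each array on its median ADAM17 was at 0.0633. The adaptor GRB2 and the kinase PTK2 had changes of -0.02 and 0.01, AKT1 had 0.26 (limma adjusted p = 0.128), and the feedback genes SOCS1 and SOCS3 had -0.08 and -0.08.

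Of 28 listed genes for phosphatidylserine exposure and engulfment, 18 were measured and 0 passed in limma, beside 8.65% of all genes tested. Their median log2 change was -0.02. An unadjusted p below 0.05 was reached by 7 of the 18, beside 26.7% of all genes tested. PLSCR1, a scramblase family gene, had -0.36 and LRP1, an engulfment receptor, had 0.31, the widest changes in each direction (limma adjusted p = 0.132 and 0.164). Of 9 other genes named for growth arrest-specific expression 7 were measured and 0 passed in limma, beside the same 8.65%. Their median was -0.18. With so few genes, 0 calls lies near that share. An unadjusted p below 0.05 was reached by 4 of the 7, beside the same 26.7% of all genes. GAS7 had a log2 change of -0.32 (limma adjusted p = 0.121) and GAS2L2 one of -0.28 (0.101). GAS2L3, a cytoskeletal linker of dividing cells, had 0.25 (0.0966).

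Mesenchymal and YAP target genes, which often accompany AXL in tumour cells, held 2 of 10 measured genes that rose and 0 that fell, with a median log2 change of 0.06. Of all genes tested 3.55% rose and 5.10% fell. SNAI2, a repressor of epithelial genes, had log2 values of 7.52 and 7.48 with verticillin A and 6.62 and 6.74 in control cells. It rose by 0.82 ± 0.08 (log2 change ± SE, limma adjusted p = 0.00992). SNAI2 did not pass when all probe sets were tested (limma adjusted p = 0.0637). Without control replicate 1, control replicate 2 or verticillin A replicate 1 it lost its call (limma adjusted p = 0.0656, 0.0759 and 0.0542). VIM, vimentin, rose by 0.40 ± 0.07 (limma adjusted p = 0.0344) but had a log2 change of 0.16 (0.224) when its 3 probe sets were averaged. Left-out arrays also ended the VIM call (limma adjusted p of 0.105 and 0.108 without control replicates 1 and 2, and 0.119 and 0.174 without verticillin A replicates 1 and 2). The other 8, among them the YAP targets CCN2 and ANKRD1 (0.05 and 0.005), did not pass. Over the 8 lists together, GAS6 left out, 5 of 67 measured genes passed, or 7.46%, beside 8.65% of all genes tested, so the lists as a whole lay near the background.

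**Figure D3:**
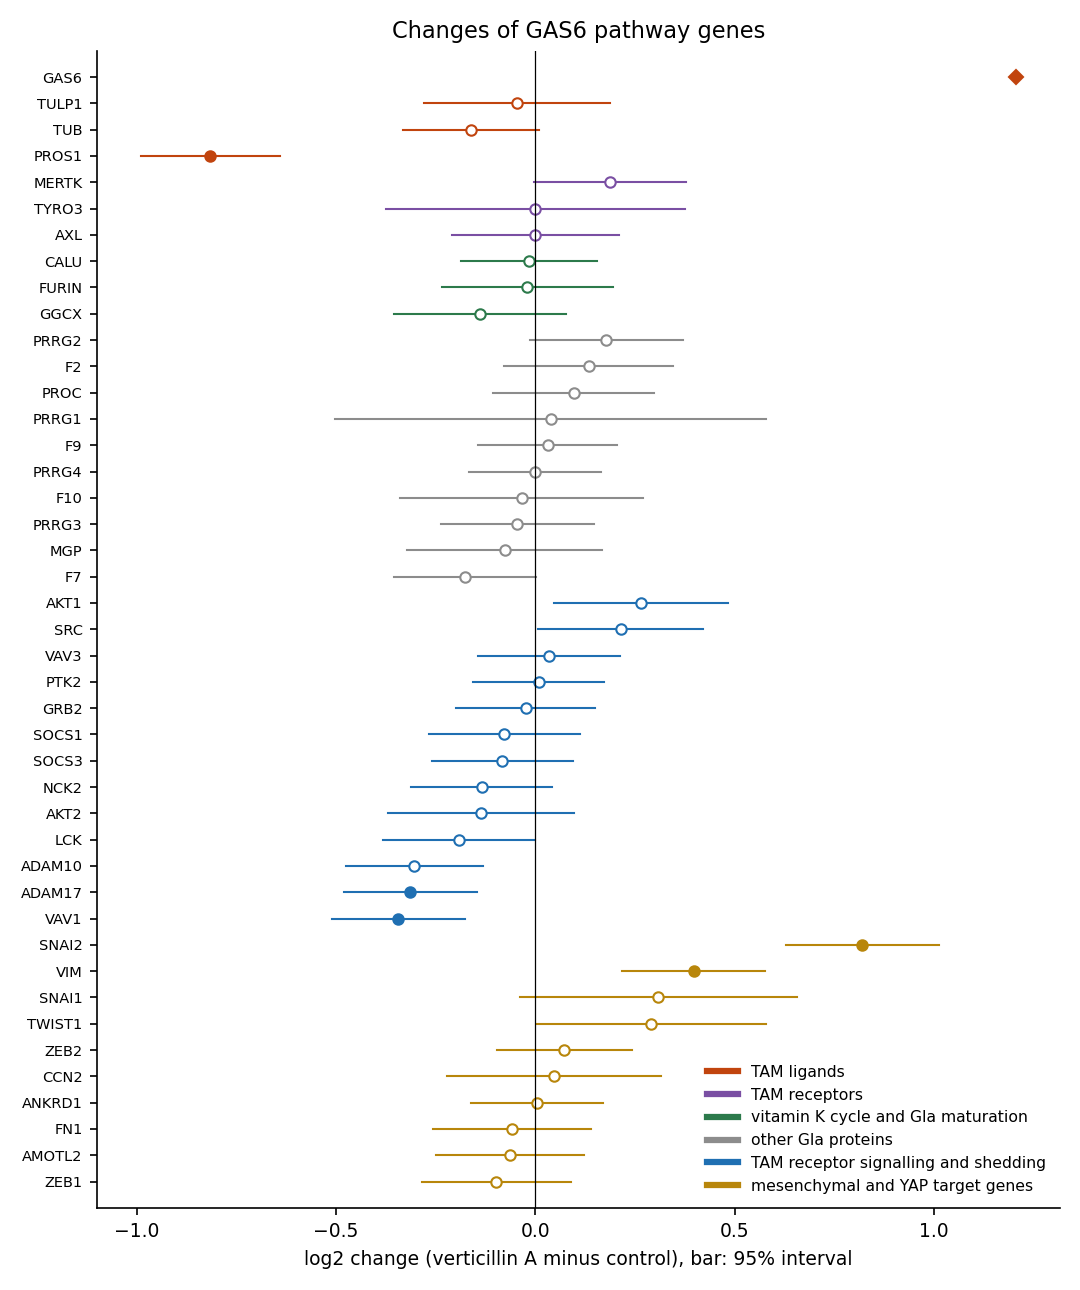
Log2 change (verticillin A minus control) of measured genes from 6 of the lists, with bars for the 95% interval; filled circles passed in limma, open circles did not, and the diamond is GAS6, which was not tested. GAS6 (1.21) and PROS1 (-0.82) lie at the outer ends, and the intervals of AXL, TYRO3 and MERTK span 0, that of MERTK narrowly (-0.003 to 0.38).

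GAS6 is also made by macrophages, fibroblasts and endothelium, so markers of cells that a pure line should lack were read. Of the 6 measured macrophage markers 1 rose, CD68, by 1.38 ± 0.07 (log2 change ± SE, limma adjusted p = 0.00308), a lysosomal gene that other cells also express, and its part in the values of GAS6 was not tested. The summed log2 level of the other 5 (CD14, CD163, CSF1R, LYZ and MARCO) was 19.2 to 19.3 with verticillin A and 19.2 to 19.4 in control cells. To these 5 were added the 3 measured of 9 listed fibroblast markers, 4 of 6 endothelial and 1 of 6 leukocyte markers. The macrophage list held 11 genes, and ITGAM, MRC1, COL1A1 and PTPRC were among the listed markers not measured. Of the 13 measured genes together 0 passed in limma, beside 8.65% of all genes tested. Their log2 values ran from 3.40 to 4.69 with verticillin A and from 3.38 to 4.59 in control cells, at or below about the median of all probe sets. At this level a lack of calls does not show that such cells are absent. Of the 9 measured colon epithelial markers KRT19, a keratin, rose by 0.44 and VIL1, villin, fell by 0.62 on the log2 scale (limma adjusted p = 0.0493 and 0.0167). KRT19 was only just below the threshold. As a background for these marker counts, 3.55% of all genes rose and 5.10% fell. EPCAM was bright, at 10.94 and 10.94 with verticillin A and 11.09 and 11.13 in control cells. The intestinal factor CDX1 was dim in both groups, at 4.08 and 4.17 with verticillin A and 4.16 and 3.96 in control cells. CDX2 had 5.53 and 5.23 with verticillin A and 5.19 and 5.19 in control cells.

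Many genes carry a divergent transcript, so the pair was set beside the others on the arrays. Of 99 genes named as divergent transcripts, 67 were measured together with their partner gene. These pairs were taken by name and do not all start close together as GAS6 and GAS6-DT do. Where promoter windows gave both starts, the distance ran from 29 bases (DPH6-DT and DPH6) to 300930 bases (TCF12-DT and TCF12). For some pairs, SEPSECS-DT and SEPSECS among them, no distance was obtained. Among the 66 other pairs, 2 divergent transcripts rose and 0 fell, with log2 changes from -0.36 to 0.69 and a median of 0.05. Among their partners 3 rose and 8 fell, with log2 changes from -1.06 to 0.46 and a median of -0.05. Over all genes 3.55% rose and 5.10% fell. Both changes of the GAS6 pair, 2.22 and 1.21, lay above the highest of the other pairs, and since the pair was picked for them this is a description. In 37 of the 66 other pairs both changes had the same sign. Several of these divergent transcripts had means below the median of all probe sets, 4.61, in both groups. CFAP95-DT (3.23 with verticillin A and 3.25 in control cells) and BSN-DT (3.54 and 3.47) are examples. Detection was not tested, so these counts and signs include transcripts that may not have been detected.

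The size of the gap between the pair, 1.01, was not the widest. SEPSECS-DT rose by 0.69 while SEPSECS, which makes selenocysteinyl tRNA, fell by 0.54, a gap of 1.23 (limma adjusted p = 0.018 and 0.0208). This was the 1 other pair in which both genes passed, and there they went in opposite directions. JUN-DT had a log2 change of 0.06 beside a fall of 1.06 for JUN, the AP-1 subunit (limma adjusted p = 0.749 and 0.00689). The means of JUN-DT, 3.83 with verticillin A and 3.77 in control cells, lay below the median of all probe sets, 4.61. At this level its small change does not show that the transcript stayed level. UBL7-DT rose by 0.69 beside -0.08 for UBL7 (limma adjusted p = 0.011 and 0.612).

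**Figure D4:**
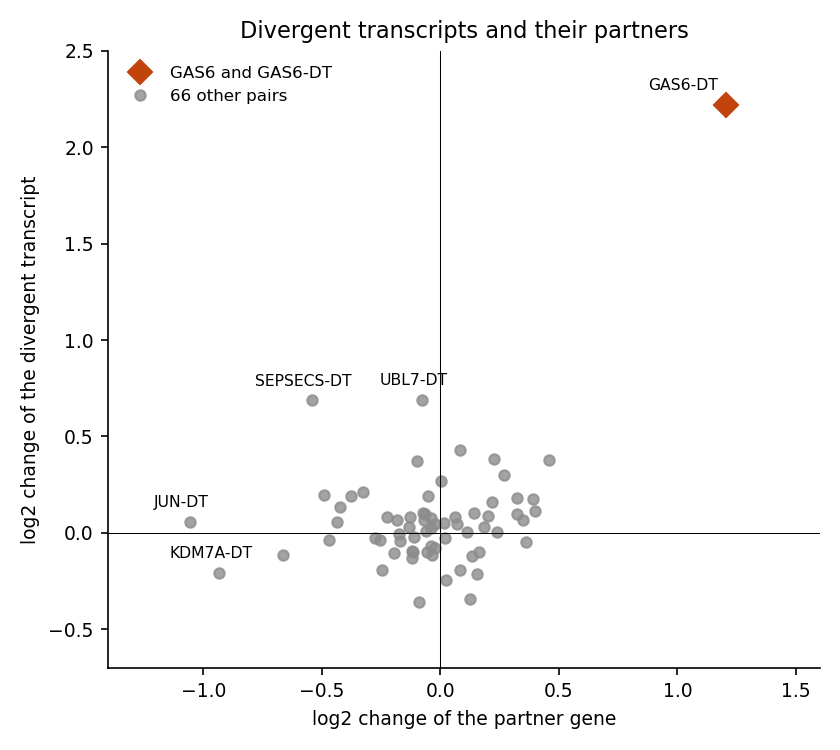
Log2 change (verticillin A minus control) of each divergent transcript against that of its partner gene, for the GAS6 pair (diamond) and 66 other pairs (circles). The GAS6 pair lies at 1.21 and 2.22, outside the range of the other pairs, and SEPSECS-DT, JUN-DT, UBL7-DT and KDM7A-DT are the other labelled pairs with wide gaps.

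The genes whose pattern over the 4 arrays was most like each transcript were found by the Euclidean distance between log2 values after subtraction of each gene's mean. For GAS6-DT these were CPA4, a carboxypeptidase, at a distance of 0.14, followed by EMP1 (0.48), HMOX1 (0.77), KRTAP2-3 (0.80) and IGFBP6 (0.85). For GAS6 they were the heat shock genes HSPA1B (0.10) and HSPA1A (0.11), near-identical copies that probes cannot reliably separate, then SFN (0.15), NAV3 (0.16) and DKK1 (0.17). CPA4 had 8.03 and 8.09 with verticillin A and 5.81 and 5.78 in control cells. The distance between GAS6 and GAS6-DT was 1.03, and 12 genes lay nearer to GAS6-DT than GAS6 did. With 2 arrays per group this measure mostly orders genes by the size of their change, and 2051 genes lay nearer to GAS6 than GAS6-DT did.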

How the data were processed

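Total RNA of 4 LS411N-5FU-R samples, 2 with and 2 without verticillin A, was hybridised to Affymetrix whole-transcript arrays, per the labels' protocols. For every array the authors deposited a log2 value of each probe set, made with GCRMA per the submitters' processing notes; its version, annotation and build were not given in the sources used here. The log2 scale was read from the values, 2.60 to 14.47 with array medians of 4.59 to 4.62. Of 53617 probe sets 16098 have 1 gene symbol in the platform annotation and 0 have several. All 16098 matched the RefSeq gene table of GRCh38.p14 by gene identifier.

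For 779 genes with several probe sets the one with the highest mean was used, giving 14884 genes. These were fitted with limma 3.58.1 in R 4.3.3 (lmFit, eBayes, treatment as factor, 2 residual and 3.43 prior degrees of freedom), with Benjamini-Hochberg adjustment over all genes and a threshold of 0.05. A log2 change is verticillin A minus control. The number of arrays limits the precision. The script was tested on simulated data. Samples were grouped by title. Same-numbered arrays did not deviate together (r = 0.01 across 14884 genes), so they were not treated as pairs.

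The members and the gene lists were chosen with earlier results of these data known. Named were all members of the TAM ligand, TAM receptor and vitamin K lists, and of other lists up to 4 called genes or 2 with the widest change. The 5 measured neighbours on each side, the 5 nearest patterns and the 4 divergent pairs with the widest gaps were also named. ADAM10, GRB2, PTK2, AKT1, SOCS1, SOCS3, CCN2, ANKRD1, GAS2L3, KDM7A-DT, EPCAM, CDX1 and CDX2 were named after their values were seen. Alternatives were another normalization, centring, a filter or floor for dim values, other probe set rules, another prior, a replicate block and each array left out.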

Additional observations from a re-analysis of the deposited data

How the results depend on the processing

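The log2 change of GAS6-DT was 2.22 after a further quantile normalization and 2.26 after centring, and that of GAS6 1.20 and 1.25. With 1 array left out, that of GAS6-DT ran from 2.10 to 2.34 and that of GAS6 from 1.12 to 1.29. The filter, the floor and the probe set rules could not move them, since each has 1 probe set above the floor. The prior acts only on the variance and the block is balanced over the groups, so neither can move the log2 change of any gene. Leaving out 1 of 2 arrays moves a change by a fixed part of that group's own spread, so these values do not test it. The number of genes called by limma, 1287, depended more on the setting. It was 2399 with the dimmest 50% of genes left out, 2028 with values under the array median raised to it, 2428 with an intensity-dependent prior, 592 with the replicate block and 49 with all probe sets tested. With 1 array left out it ran from 0 to 153. The 0 held without either control array, with 3715 and 3528 genes at an unadjusted p below 0.05 and smallest adjusted p of 0.0525 and 0.0502, in fits with 1 residual degree of freedom less and a lone control array assumed to vary like the treated ones. Of the 67 pathway genes 5 were called. The count was 12 without the dimmest 50%, 12 with the floor, 13 with the intensity-dependent prior, 2 with the replicate block, 0 with all probe sets tested (14 at an unadjusted p below 0.05) and 0 to 2 with 1 array left out. Centring each array on its median turned the split of all calls from 528 higher and 759 lower to 750 higher and 668 lower. The cause of these differences was not tested. The labels do not say that equal replicate numbers mark a pair.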
